A study of Homo sapiens with 6 samples.

Results

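The regions described here are the Brpf2 peaks on chromosome 19. They were found by chromosome alone, as every peak that the deposited list places on chromosome 19, and they number 818 of 11874 peaks in the list. The list comes from chromatin immunoprecipitation with sequencing (ChIP-seq) of Brpf2 in RKO cells, a human line established from colon carcinoma and kept in ordinary growth medium without treatment. The series also holds 1 sample each for ING2, ING5, H3K4me3, H3 and rabbit IgG, which were not analysed here. With 1 library and no replicate, no difference below has a test. Intervals cover counting error only, peaks that lie close together are not independent, and the read depth is unknown.

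Brpf2, also named BRD1, is a scaffold protein of histone acetyltransferase complexes of the MYST family. It holds the catalytic subunit HBO1, or MOZ or MORF, together with the small subunits ING4 or ING5 and MEAF6, and carries PHD fingers, a bromodomain and a PWWP domain that contact histones. Complexes of this kind acetylate histone H3 and are known mostly from the start sites of active genes. Chromosome 19 is known for its high density of genes, and for large families of zinc finger genes that lie side by side in clusters. Many of these encode KRAB zinc finger proteins, which recruit the corepressor TRIM28 and silence transposable elements. The bodies and 3′ ends of such genes are often packed with the repressive mark H3K9me3.

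Chromosome 19 carried 3.19 times the peaks that its length gave among the 22 autosomes (95% interval 2.97 to 3.42), taking length as the position where the last peak ends. This was the highest ratio of the 22, and the next was 2.34 on chromosome 17 (2.18 to 2.52). Peaks covered 3.08% of chromosome 19, against 0.466% to 2.42% of the other 21 autosomes. The peaks themselves were weak and narrow for this list. The score, a value that the authors' caller assigned and whose scale is not stated, had a median of 403 on chromosome 19 (95% interval 362 to 440) and of 650 over the 10695 peaks of the other autosomes (629.8 to 669.5). The median width was 2104 bp (2022 to 2187 bp) against 2369 bp (2349 to 2390 bp). Chromosome 19 had the lowest median of the 22 autosomes in both measures. The medians of the other 21 lay between 529 (chromosome 6) and 852 (chromosome 8) for score, and between 2170 bp (chromosome 6) and 3013 bp (chromosome 8) for width.

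**Figure D1:**
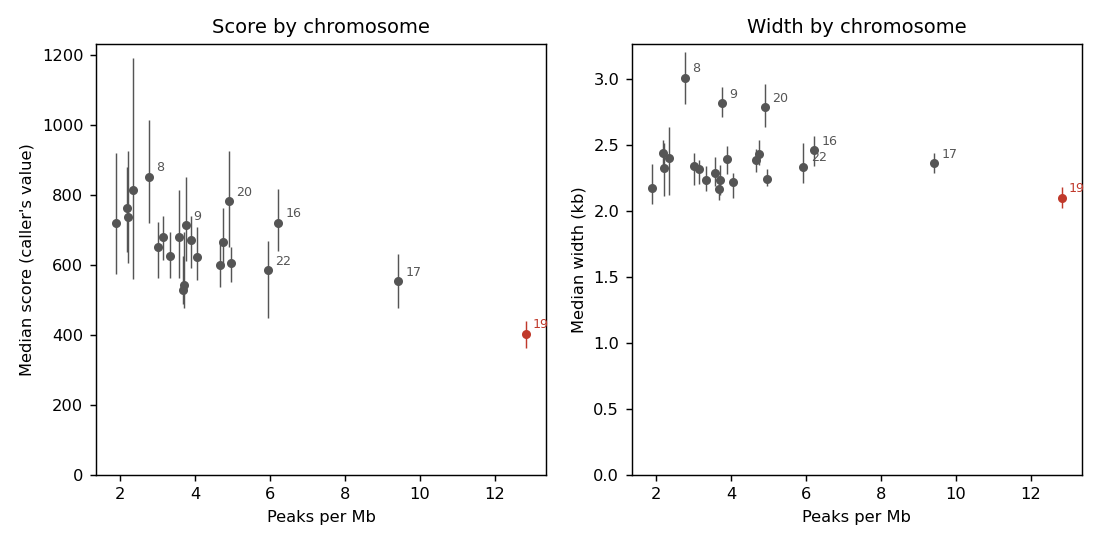
Median score (left) and median width in kb (right) of the Brpf2 peaks of each of the 22 autosomes, against peaks per Mb; bars are 95% intervals of the median from order statistics, and 7 chromosomes are labelled by number. Chromosome 19 (red) lies at 12.8 peaks per Mb with the lowest median in both panels, 403 and 2104 bp.

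The lower median score went with more peaks under 300 and fewer from 1000 up. Scores under 100 were found for 14.2% of the chromosome 19 peaks and 9.98% of those on the other autosomes, and scores from 100 to 300 for 25.9% and 18.7%. Scores from 1000 to 3100 made up 18.8% on chromosome 19 and 27.3% elsewhere. The authors' scores pile up at exactly 3100, and 56 peaks of chromosome 19 (6.85%, exact 95% interval 5.21 to 8.80%) had this value. At or above 3100 stood 8.27% of the whole list and 8.58% of the other autosomes (8.06 to 9.13%). No chromosome 19 peak scored above 3100 (with 3 counts as the limit, a share of up to 0.367% is allowed), while 60 of the 10695 peaks of the other autosomes did. Such scores were rare everywhere, with 61 in the whole list of 11874. On the other autosomes they made up 6.54% of the peaks at or above 3100. Chromosomes 5 and 18 had none above 3100 either.

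Within a class of score, peaks on chromosome 19 were about as wide as elsewhere. Under 100 the medians were 1282 bp on chromosome 19 (95% interval 1165 to 1464 bp) and 1146 bp on the other autosomes (1118 to 1178 bp). Between 100 and 300 the medians were 1700 bp (1605 to 1799 bp) and 1673 bp (1653 to 1699 bp). Between 300 and 1000 they were 2126 bp (2033 to 2257 bp) and 2276 bp (2251 to 2306 bp), and between 1000 and 3100 they were 3213 bp (3048 to 3341 bp) and 3037 bp (3003 to 3070 bp). At 3100 or above they were 4855 bp (4367 to 5197 bp) and 4562 bp (4441 to 4718 bp). The median of chromosome 19 was thus the smaller only between 300 and 1000 and the larger in all other classes, with overlapping intervals in each class. When only peaks that reached the median score of the whole list were kept, 311 of them on chromosome 19, its median width was 155.5 bp larger than that of the other autosomes. In that subset the difference in the share at or above 3100 turned as well, from −1.74 to 1.42 percentage points. The subset is itself cut by score, and it kept 38.0% of the chromosome 19 peaks and 51.7% of those on the other autosomes. The share is thus taken over a smaller part of the peaks on chromosome 19, which by itself raises it there. Peaks of 5 kb or wider numbered 33 on chromosome 19, or 4.03%, beside 4.55% of the whole list. Peaks under 1 kb numbered 22, or 2.69%, where the other autosomes had 4.12%.

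**Figure D2:**
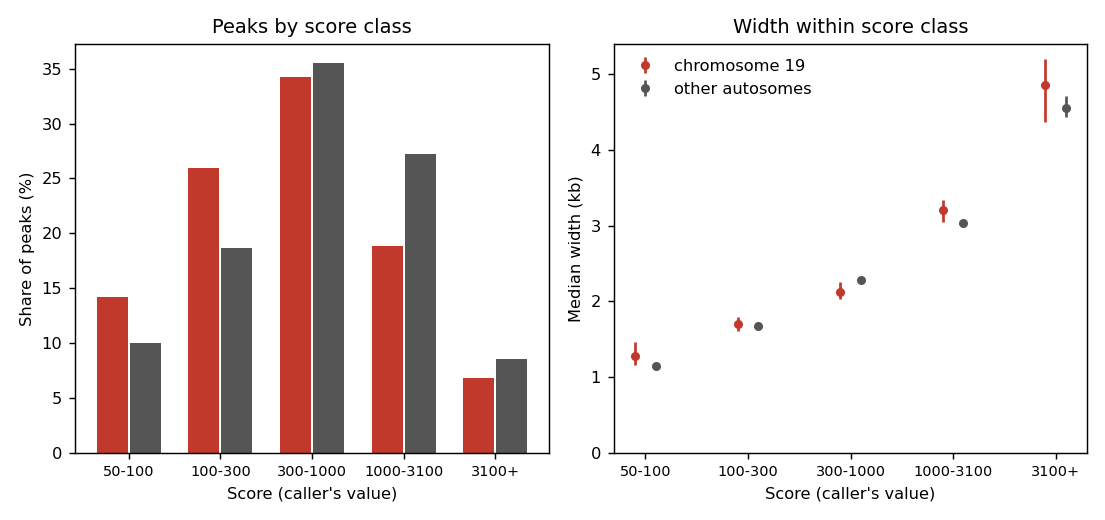
Share of peaks in 5 classes of score (left, %) and median width in kb within each class (right, bars are 95% intervals of the median), for 818 peaks of chromosome 19 (red) and 10695 of the other autosomes (grey). Chromosome 19 has more peaks below 300 and fewer between 1000 and 3100, and its widths stay close to those elsewhere within each class.

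The longest stretch without a peak on chromosome 19 ran from 24062635 to 32975411 (8.91 Mb, hg18), a part of the chromosome that holds the centromere, and it separated the arms. The short arm had 408 peaks between 20133 and 24062634 and the long arm 410 between 32975412 and 63779689. The short arm was the denser, with 16.97 peaks per Mb (95% interval 15.4 to 18.7) against 13.3 (12.1 to 14.7). The median score was 439 on the short arm (389 to 540) and 345 on the long arm (299.6 to 419). Their intervals overlap, and so do those of the widths, 2094 bp (1988 to 2233 bp) and 2113 bp (2005 to 2240 bp). The short arm held 33 of the 56 peaks at 3100 and the long arm 23. Both peaks of 10 kb or wider lay on the long arm, as did 14 of the 22 peaks under 1 kb.

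In windows of 1 Mb counted from position 1, with the 7 windows wholly inside the central stretch left out, chromosome 19 had a median of 14 peaks per window (quartiles 8 and 20, 57 windows). The other autosomes, treated alike, had a median of 3 (quartiles 1 and 6, 2581 windows). Windows with 20 or more peaks made up 26.3% on chromosome 19 and 2.05% elsewhere, and windows without a peak 5.26% and 23.4%. Measures of unevenness along the chromosome differed in how they placed it. The variance of the counts was 5.35 times their mean on chromosome 19 and between 2.78 and 9.57 times on each of the other autosomes. The most crowded windows that together held 50% of the peaks made up 29.8% of the windows on chromosome 19, against 16.04% on the other autosomes together and 14.5% to 29.4% on each. By this measure, chromosome 19 ranked as the most even of the 22, just beyond chromosome 22. No allowance was made for density. The mean count per window was 14.35 on chromosome 19, 8.65 on chromosome 22 and 4.14 on the other autosomes together.

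**Figure D3:**
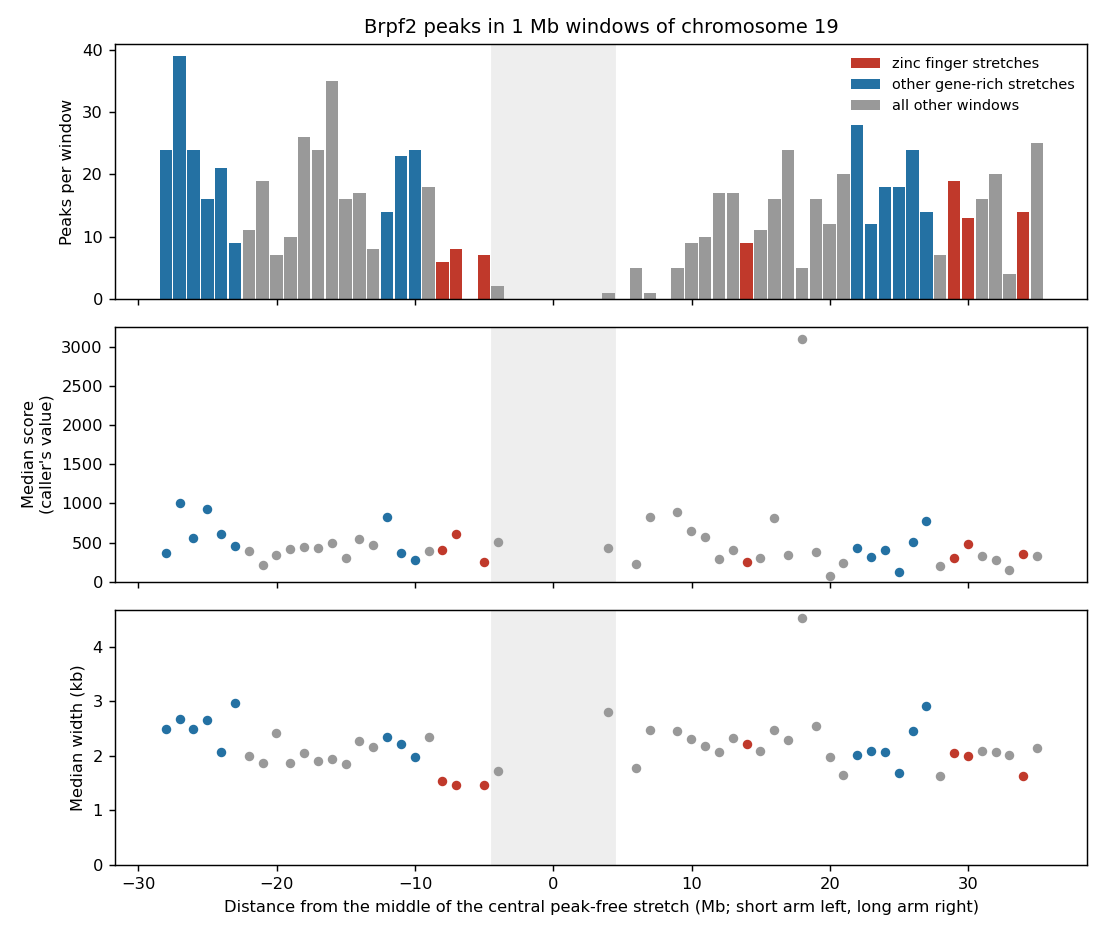
Peaks per 1 Mb window (top), their median score (middle) and median width in kb (bottom) along chromosome 19, by distance in Mb from the middle of the central peak-free stretch (grey band). Zinc finger stretches are red, other gene-rich stretches blue and all other windows grey; the highest bar, 39 peaks, lies near the end of the short arm, and the 4 red windows beside the band hold 0 to 8.

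On the short arm, the 5 windows with the most peaks lay from 1 to 2 Mb (39 peaks), 12 to 13 Mb (35), 10 to 11 Mb (26), and 0 to 1 Mb and 2 to 3 Mb (24 each), with ties given to the lower position. The windows from 11 to 12 Mb and 18 to 19 Mb also held 24, with 1 peak at 3100 in each. The 5 differed in strength. The window from 1 to 2 Mb had a median score of 1008 and 8 peaks at 3100, and 23 of its 39 peaks had a neighbour within 10 kb. The window from 10 to 11 Mb had a median score of 441 and a highest score of 2688, so none of its peaks reached 3100. The window from 12 to 13 Mb had a median score of 495, with 3 at 3100.

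On the long arm, the 5 windows were 50 to 51 Mb (28 peaks), 63 to 64 Mb (25), 45 to 46 Mb and 54 to 55 Mb (24 each) and, by the same rule for ties, 49 to 50 Mb (20). The window from 60 to 61 Mb, tied with the last at 20, had a median score of 273 and 3 peaks at 3100. The window from 54 to 55 Mb also had 3 at 3100, and the other 4 had 1 or none. The window from 49 to 50 Mb had no score above 641, a median width of 1646 bp and only 2 peaks with a neighbour within 10 kb, whereas that from 45 to 46 Mb had 10. A further 3 windows were singled out after their values were seen. From 46 to 47 Mb, only 5 peaks were listed, but 3 of them scored 3100 and the median width was 4526 bp. From 48 to 49 Mb, 12 peaks had a median score of 75, the lowest of the 54 windows with a peak, and from 53 to 54 Mb 18 peaks had a median of 130.

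Across these 54 windows the number of peaks and the median score showed no relation (Spearman's rho = −0.03, given as a description), nor did number and median width (rho = 0.04). The windows share 1 library and chromosome. The windows without a peak between the first and last peak of an arm lay from 22 to 23 Mb on the short arm and from 33 to 34 Mb and 36 to 37 Mb on the long arm. After the central stretch, the longest gaps between neighbouring peaks ran from 35126967 to 37528053 (2.40 Mb), from 21742609 to 23223378 (1.48 Mb), from 32978220 to 34394151 (1.42 Mb) and from 47620256 to 48670607 (1.05 Mb). Of these 4, 3 lay within 5 Mb of the central stretch. Which parts of them can be aligned to was not examined.

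Equally crowded windows of the other autosomes together held peaks of higher score than those of chromosome 19, though not clearly so on every chromosome. In windows with 20 or more peaks, the median score was 411 on chromosome 19 (15 windows, 381 peaks, 95% interval 348 to 488) and 686 on the other autosomes (53 windows, 1297 peaks, 612 to 736). It was 598 on chromosome 17 (8 windows, 468 to 736) and 762 on chromosome 16 (8 windows, 581 to 906). In windows with 10 to 19 peaks it was 397 (312 to 456) against 585 (548 to 620), and in those with 5 to 9 peaks 396 (259 to 537) against 681 (652 to 714). Chromosome 17, the next in density, had the higher median in each of these 3 classes, but its interval overlapped that of chromosome 19 in all 3, most of all at 10 to 19 peaks with 479 (403 to 628). Chromosome 22 overlapped in all 3 as well, with 546 (425 to 655) at 10 to 19 peaks, and chromosome 16 in none. With 4 peaks or fewer, chromosome 19 had only 8 peaks, and the intervals overlapped. Widths in the most crowded windows were 2111 bp (2012 to 2233 bp) on chromosome 19 and 2646 bp (2573 to 2731 bp) elsewhere. The share at 3100 or above there was 8.40% (5.82 to 11.7%) against 9.64% (8.09 to 11.4%), within counting error of each other.

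**Figure D4:**
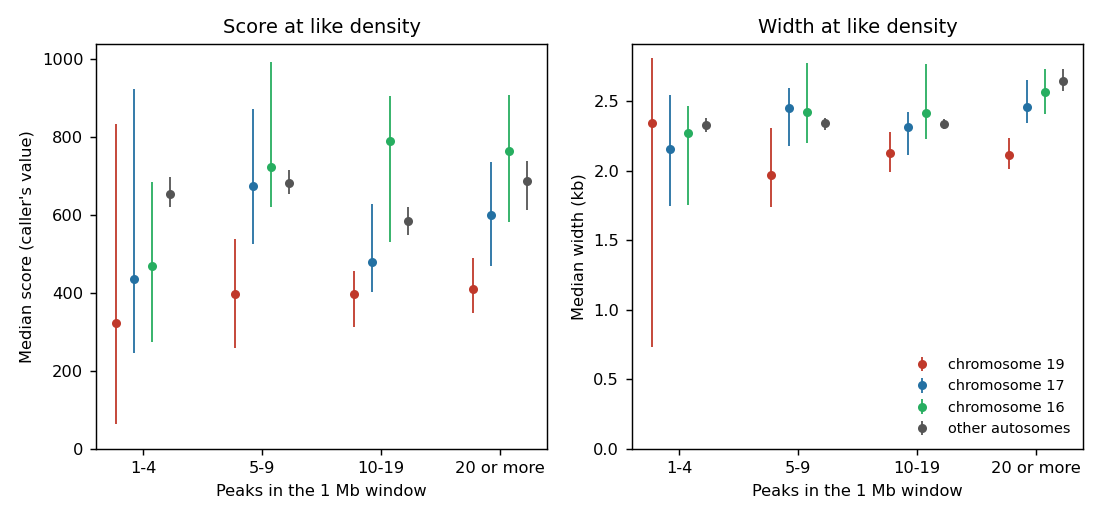
Median score (left) and median width in kb (right) of peaks in 1 Mb windows that hold 1 to 4, 5 to 9, 10 to 19 or 20 or more peaks, with 95% intervals of the median, on chromosomes 19, 17 and 16 and on all autosomes but 19 (which include 16 and 17). From 5 peaks per window on, chromosome 19 lies between 396 and 411 in score while the other autosomes lie between 585 and 686.

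Neighbouring peaks on chromosome 19 lay a median of 31.5 kb apart, edge to edge (95% interval 27.9 to 34.6 kb), with quartiles of 13.03 and 66.2 kb. The other autosomes together had a median of 74.2 kb (71.4 to 77.0 kb), and singly between 41.4 kb (chromosome 17) and 142 kb (chromosome 18). Of the 818 peaks, 277 had another within 10 kb, or 33.9% (exact 95% interval 30.6 to 37.2%), beside 23% of the whole list. Chromosome 17 had nearly the same share, 33.6%. Within 2 kb the shares were 11.6% on chromosome 19 and 3.64% to 10.4% on each of the other autosomes. In windows of like density, chromosome 19 did not have the higher share within 10 kb throughout. With 20 or more peaks per window it was 41.7% (36.7 to 46.9%), against 46.7% (44.0 to 49.5%) on the other autosomes together. With 10 to 19 peaks it was 33.1% (28.2 to 38.4%) against 29.3% (27.6 to 31.0%). With 5 to 9 peaks it was 4.71% (1.30 to 11.6%) against 17.2%. The intervals overlapped in the first 2 of these classes.

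Close peaks formed mostly pairs. Neighbours within 10 kb joined into 116 groups, of which 87 held 2 peaks, 21 held 3 and 8 held 4 or more. The group with the most peaks, 9 in 42.05 kb from 1186502 to 1228551, held 2 peaks at 3100 and 1 as low as 65.05. The next, 6 peaks from 55045551 to 55073867, had a median score of 140. The 3 closest pairs were 3, 6 and 15 bp apart. In the first, a peak of 4186 bp at 3100 (1810872 to 1815057) was followed by one of 2047 bp at 236 (1815061 to 1817107). In the second (45639659 to 45640986 and 45640993 to 45642478) the scores were 186 and 348, and in the third (55070114 to 55072774 and 55072790 to 55073867) 112 and 69.3. Whether such pairs are separate sites or 1 site split by the caller was not tested. On chromosome 19, peaks with a neighbour within 2 kb had a median score of 309 and those with none within 50 kb of 429; on the other autosomes the medians were 372 and 721.

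With 56 peaks tied at 3100, the 10 highest were ordered by width. The widest of all, 13339 bp, lay on the long arm from 55887308 to 55900646, and the next widest peak of the chromosome, 10246 bp with a score of 2346 (55911241 to 55921486), followed it after 10.6 kb. Of the other 9 at 3100, the peak from 46415968 to 46425124 (9157 bp) stood apart, 417 kb from the peak before it and with 2 other peaks within 100 kb. The peak from 1117309 to 1125755 (8447 bp) lay in the most crowded window, with 14 others within 100 kb. The rest lay from 13120141 to 13128090, 2185781 to 2193435, 52420813 to 52428147, 60842075 to 60849213, 60585796 to 60592512, 50613288 to 50619972 and 1198429 to 1204806, and were 6378 to 7950 bp wide. The 5 narrowest peaks, 631 to 729 bp, were all on the long arm, with scores between 50.01 and 85.5. They began at 53933873, 59699218, 53450441, 43918485 and 61420398.

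Zinc finger clusters could be set apart only roughly, since the peak list names no genes and no hg18 annotation was used. Whole windows taken to hold mostly clustered zinc finger genes were chosen from general knowledge of the chromosome. The choice was not checked against an hg18 gene track and was made with earlier results of these data known. The windows were 20 to 24 Mb next to the centromere on the short arm, and 42 to 43, 57 to 59 and 62 to 63 Mb on the long arm, 8 Mb in all. As other gene-rich stretches, 0 to 6, 16 to 19 and 50 to 56 Mb were taken in the same way, 15 Mb in all. The remaining 34 windows, which hold further zinc finger genes, were put in neither class. In the RefSeq table of GRCh38.p14, 265 of the 1451 protein-coding genes of chromosome 19 (18.3%) have zinc finger symbols, against 1.65% on the other autosomes. In gene order, 213 of them stand in 18 unbroken runs of 5 or more, the longest of them 27 genes from ZNF737 to ZNF681. Runs of 24 genes followed, from ZNF627 to ZNF791 and from ZNF565 to ZNF793. Which runs lie inside the chosen windows was not examined. The comparison below therefore covers only the stretches picked, and clusters in the remaining windows may differ from them. The remaining windows held 0 to 35 peaks each, so the lower density reported below cannot be extended to clusters there.

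Against the other gene-rich stretches, Brpf2 peaks were fewer and narrower in the chosen zinc finger stretches and seldom lay close together. None was at the top of the score range. The 8 zinc finger windows held 76 peaks, 9.50 per Mb (95% interval 7.48 to 11.9), and the 15 other gene-rich windows 308, 20.5 per Mb (18.3 to 22.96). Windows ranged from 0 to 19 peaks in the first and from 9 to 39 in the second, so single windows overlap. The ratio of the densities was 0.463. It was 0.256 for the short arm stretch alone and 0.670 for the 4 long arm windows, so the size of the difference rests on the stretch next to the centromere. That stretch had 5.25 peaks per Mb (3.25 to 8.03), that from 42 to 43 Mb 9 peaks, that from 57 to 59 Mb 16 per Mb (10.9 to 22.6) and that from 62 to 63 Mb 14 peaks. The other gene-rich stretches had 22.2 (0 to 6 Mb), 20.3 (16 to 19 Mb) and 19 per Mb (50 to 56 Mb). The 34 windows in neither class had 12.8 per Mb (11.6 to 14.02), so the 4 long arm zinc finger windows, with 13.75 (10.4 to 17.9), were not sparser than these.

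The median width was 1795 bp in the zinc finger stretches (1605 to 2021 bp) and 2286 bp in the others (2108 to 2466 bp). It was 1463 bp next to the centromere (1256 to 1731 bp), 2221 bp from 42 to 43 Mb, 2025 bp from 57 to 59 Mb and 1628 bp from 62 to 63 Mb. In the windows of neither class it was 2090 bp (1983 to 2187 bp), and the interval of the long arm zinc finger windows, 2005 bp (1778 to 2228 bp), overlapped it. No zinc finger peak reached 5 kb (with 3 counts as the limit, a share of up to 3.95% is allowed). Of the 308 peaks in the others, 21 did (6.82%), beside 4.55% of the whole list. The allowed share is thus only slightly below that of the whole list. The widest zinc finger peak spanned 3348 bp. Scores were compressed from both sides. The quartiles were 214 and 570 in the zinc finger stretches and 155 and 1375 in the others, around medians of 324 (262 to 439) and 480 (391 to 635). None of the 76 peaks scored 3100 (with 3 counts as the limit, a share of up to 3.95% is allowed), against 32 of 308 (10.4%, exact 95% interval 7.22 to 14.4%). Of these 32, 20 lay from 0 to 6 Mb, where they were 15.0% of the peaks (9.43 to 22.3%). In the windows of neither class, 24 of 434 peaks scored 3100 (5.53%, 3.57 to 8.12%). That interval overlaps the exact one of the zinc finger peaks, 0 to 4.74%.

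The highest-scoring peak of each zinc finger stretch was a single region of 1.66 to 3.35 kb. It lay from 23368894 to 23370549 on the short arm, with a score of 1376 and no other peak within 100 kb. On the long arm it lay from 42836496 to 42839552 (score 2240), from 57288438 to 57291276 (score 2354) and from 62482487 to 62485834 (score 1148).

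Closely spaced peaks were rare in the zinc finger stretches, a comparison that was not planned. Another peak within 10 kb was present for 4 of 76 zinc finger peaks (5.26%) and for 133 of 308 peaks in the other gene-rich stretches (43.2%), beside 23% of the whole list. Within 2 kb the counts were 0 of 76 (exact 95% interval 0 to 4.74%) and 49 of 308 (15.9%), beside 8.35% of the whole list. In the windows of neither class a neighbour within 10 kb was present for 140 of 434 peaks (32.3%), and in the long arm zinc finger windows for 2 of 55 (3.64%). With a distance of 50 kb the shares were 69.7% in the zinc finger stretches (58.1 to 79.8%) and 88.0% in the other gene-rich ones (83.8 to 91.4%). The difference was thus smaller at 50 kb but did not vanish. By stretch, the zinc finger share at 50 kb was 42.9% from 20 to 24 Mb and 22.2% from 42 to 43 Mb. It was 93.75% from 57 to 59 Mb and 85.7% from 62 to 63 Mb. Because fewer peaks leave larger gaps, windows of like density were also compared, a choice made after the values were seen. The 3 zinc finger windows with 13 to 19 peaks (57 to 58, 58 to 59 and 62 to 63 Mb) held 46 peaks, of which 2 had a neighbour within 10 kb (4.35%, exact 95% interval 0.531 to 14.8%). In the 14 other windows of chromosome 19 with 13 to 19 peaks, 93 of 232 peaks did (40.1%, 33.7 to 46.7%), and in 96 such windows of the other autosomes 492 of 1497 (32.9%, 30.5 to 35.3%). The median gap was 37.4 kb in the zinc finger windows, with quartiles of 25 and 55.5 kb, and 30.0 kb in the other windows of the chromosome, with wider quartiles of 10.5 and 71.5 kb. Each of the 3 zinc finger windows had 2 or fewer peaks with such a neighbour, whereas the other 14 had between 2 and 10, with a median of 6.5. Median scores were 416 (262 to 485) and 409 (312 to 540), and median widths 1940 bp (1612 to 2228 bp) and 2249 bp (2031 to 2423 bp), with overlapping intervals in both measures. A score of 3100 was reached by 0 of the 46 peaks (exact 95% interval 0 to 7.71%) and by 12 of the 232 (5.17%, 2.70 to 8.86%). These intervals overlap too. With 3 windows from 1 library, no test of these differences was made.

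**Figure D5:**
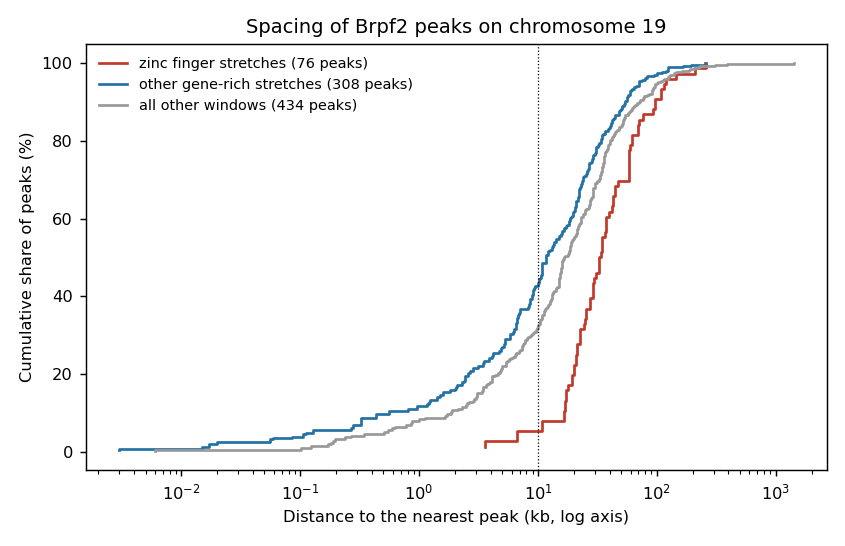
Cumulative share of peaks (%) by the distance to the nearest peak (kb, log axis; dotted line at 10 kb) for zinc finger stretches (red, 76 peaks), other gene-rich stretches (blue, 308 peaks) and all other windows (grey, 434 peaks) of chromosome 19. At 10 kb the red curve stands at 5.26% and the blue at 43.2%.

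Set against gene number, chromosome 19 had 56.4 peaks per 100 protein-coding genes, fewer than 18 of the other 21 autosomes. When genes with zinc finger symbols were left out of the gene count on every chromosome, it had 69.0 (64.3 to 73.9), the highest of the 22 and close to chromosomes 9 (68.6, 62.9 to 74.8) and 7 (68.5, 63.2 to 74.2). Peaks at zinc finger genes still count in this ratio, since peaks were not assigned to genes, so it is an upper value for the other genes. The same step moved the other autosomes together only from 60.5 to 61.5.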

How the data were processed

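Brpf2 ChIP-seq in RKO cells gave 1 peak list, with no replicate. Per the submitters' processing notes, BWA, SAMtools, bedtools and hg18 were used, without versions or roles. Peak names in the deposited file carry the name MACS, and its settings and control library were not stated per the labels. Each deposited score is a value from the authors' caller, on a scale that is not stated, and served only for comparisons inside the list. The start and end of each peak, the other deposited columns, are in bp. Positions are hg18 and are counted from 1.

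Peaks were placed in 1 Mb windows by midpoint. Shares have exact Clopper-Pearson, counts exact Poisson, and medians order-statistic 95% intervals. No test was made. The regions, the stretches and the rule for named regions (the 5 most crowded windows per arm, empty windows, 10 highest scores, 5 widest, 5 narrowest, 5 longest gaps, 3 closest pairs and the highest score in each zinc finger stretch) were chosen with earlier results of these data known. Zinc finger symbols begin with ZNF, ZSCAN, ZFP, ZIM, ZIK or ZKSCAN. RefSeq coordinates were used for gene order alone. The code was tested on simulated data. Alternatives were peaks joined within 1 kb, peaks at or above the median score, other lengths, grids and distances, and stretches left out. Python 3.11.15, pandas 2.3.3 and SciPy 1.17.1 were used.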

Additional observations from a re-analysis of the deposited data

How the results depend on the processing

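Of 45 alternatives, 26 stayed within the interval of the main value or, for the number of peaks, within 1.5 times it, 17 moved beyond it and 2 reversed. Keeping only peaks that reached the median score left 311 peaks on chromosome 19, a length ratio of 2.39, a median of 5 peaks per window and a median gap of 77.1 kb, and lowered the ratio of gaps (other autosomes over chromosome 19) from 2.36 to 1.94. There the difference of chromosome 19 from the other autosomes was −122 in median score, and it reversed to 155.5 bp in width (from −265.5 bp) and to 1.42 percentage points at or above 3100. The cut by score kept 38.0% of the chromosome 19 peaks and 51.7% of the others, so this last share is taken over unequal parts. Zinc finger stretches against other gene-rich ones in that subset had a density ratio of 0.245, differences of −558 in score and −1118.5 bp in width, and a ratio of 0 for close neighbours. These values rest on few zinc finger peaks, since the upper quartile of the 76 scores, 570, was below the cut at 614. Without the longest peak-free stretch, the length ratio was 3.48. In windows with 20 or more peaks, the difference in width was −535 bp. The zinc finger density ratio was 0.256 for the short arm stretch alone (with a difference in width of −822.5 bp), 0.670 without it and 0.357 without 57 to 59 Mb. The ratio of close neighbours there rose from 0.122 to 0.793 at 50 kb. This comparison of close neighbours, its main value included, was not planned and was chosen after seeing the data. The causes were not tested. No paired analysis was possible because 1 library was used. Without the depth, the number of weak peaks missed cannot be estimated.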
